A study of Sus scrofa with 12 samples.

Results

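The genes described here encode the proteins of the cytosolic ribosome, measured in pig skeletal muscle during the first day after death. They were taken as the genes whose only symbol in the array's annotation was RPL or RPS followed by a number, or RPSA, RPLP0, RPLP1 or RPLP2, each represented by its brightest probe set over the 12 arrays. This gave 63 of the 6765 genes with a single symbol, 38 of the large subunit and 25 of the small subunit, covered by 95 of the 23999 probe sets tested. The kinases RPS6KA1, RPS6KA3 and RPS6KC1 were dropped, and RPS19BP1, a binding partner of a ribosomal protein, was left out as it is no subunit. Probe sets with several symbols in the annotation were not used, so some ribosomal proteins, RPL10 and RPL36 among them, have no value.

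Each of 3 female commercial hybrid pigs of about 160 kg, from a single farm, was stunned with CO2 and slaughtered under routine conditions. Semimembranosus muscle of the left leg was taken from every pig at 20 min, 2 h, 6 h and 24 h after death while the carcass was chilled, and 1 portion per pig and time was hybridised to its own Affymetrix array. No group was a living or unstunned control, so all changes are against the 20 min portions, and the comparisons with 20 min share those 3 arrays. The labels state neither the pigs' ages nor a genotype. The 12 arrays limit the precision of every value.

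A ribosome consists of a large subunit, which joins amino acids, and a small subunit, which reads the messenger RNA, and each holds one copy of most of its proteins. The mRNAs of these proteins begin with a terminal oligopyrimidine (TOP) tract, through which growth signals and nutrient supply control their translation together, and the mRNAs are known as abundant and long-lived. In skeletal muscle, ribosome number is tied to growth and wasting of the fibres.

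The labelled tissue was checked against its markers. All 15 muscle fibre markers on the array lay above the array median, their mean log2 level lay between 14.0 and 14.1 on every array, and their median change at 24 h was 0.0080. None of 6 lymphocyte markers lay above the array median. The 9 macrophage markers measured had a mean level of 6.63 to 7.43 on the 20 min arrays and of 5.91 to 6.53 on the 24 h arrays, and 7 of them lay above the array median. The 9 fibroblast markers had mean levels of 8.57 to 9.38 at 20 min and of 8.58 to 8.94 at 24 h. The array's control probe sets for EF1A differed by 0.23 to 1.11 between the 3′ and 5′ ends of the transcript, with changes at 24 h of 0.38, -0.010 and 0.47 in pigs 1, 2 and 3. For actin the end difference was 2.0 to 2.5, with changes of 0.094, -0.23 and -0.044. For GAPDH it was -0.30 to -0.16, with changes of 0.061, 0.0098 and 0.039. At 2 h the EF1A difference changed by 0.077, 0.49 and 0.26 in pigs 1, 2 and 3, so it was higher in each. The actin difference changed by -0.22, 0.31 and -0.19 at 2 h, and that of GAPDH by 0.0013, 0.036 and -0.067. At 6 h the EF1A changes were 0.062, -0.038 and 0.21. The largest EF1A and actin differences were both on the 2 h array of pig 2. Pairwise correlations of the 12 arrays over all probe sets lay between 0.986 and 0.997.

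The ribosomal protein mRNAs were among the brightest signals on the arrays. Their log2 levels, on the scale of the robust multi-array average (RMA), ran from 3.36 to 13.92 with a median of 13.04, while the array medians lay between 5.89 and 5.93. Of the 63 genes, 60 lay above the array median and 53 had a level of 12 or more. The probe sets of RPL26 (3.67), RPL30 (3.36) and RPS15A (3.74) were at the dim end of the array, so their values carry little information on those mRNAs. A level belongs to its probe set and gives no ranking of mRNAs against each other.

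No ribosomal protein gene passed the adjusted threshold of 0.05 at any time, yet the measured means lay mostly on the lower side by a few percent. In limma with Benjamini-Hochberg adjustment over all probe sets, the smallest adjusted p among the members was 0.61 at 2 h, 0.53 at 6 h and 0.30 at 24 h against 20 min, and 0.62 for any difference over the 4 times. The share of all 6765 genes that passed was 0 percent at 2 h, 0 percent at 6 h and 0.0148 percent at 24 h. With an unadjusted p under 0.05, 2 members were lower at 2 h, 1 at 6 h and 4 at 24 h, and none was higher. Of all genes, 4.26, 3.99 and 8.71 percent were lower by this rule and 4.02, 4.82 and 6.28 percent were higher. By this count the members stood close to the background.

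For the brightest probe sets, directions within pigs stood further from the background. At 2 h, 35 of 63 members were lower in 3 of 3 pigs, where 16.8 percent of all genes were; at 6 h it was 28 members, against 17.8 percent; and at 24 h it was 38 members, against 21.1 percent. Lower means were measured for 59, 50 and 53 members at the 3 times, against 52.5, 51.3 and 52.8 percent of all genes. Members higher in 3 of 3 pigs numbered 0, 1 and 0, where the background was 14, 16 and 16.3 percent. Members with all 3 later values below all 3 values of 20 min numbered 12, 7 and 15, where 3.87, 3.28 and 6.02 percent of all genes had this, and 0 members had all 3 later values above, where 3.68, 4.08 and 6.18 percent of all genes did. Genes are not independent of each other within an array, so these counts describe the 12 arrays and carry no p-value.

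The size of the difference was small. The median log2 change of the 63 members was -0.066 at 2 h, with pig medians of -0.023, -0.081 and -0.094. It was -0.043 at 6 h, with pig medians of -0.037, -0.039 and -0.055, and -0.081 at 24 h, with pig medians of -0.060, -0.085 and -0.12. These medians correspond to levels 1.05-fold, 1.03-fold and 1.06-fold lower, beside medians over all genes of -0.0076, -0.0051 and -0.011. In a bulk sample, fewer cells of a type and less RNA per cell cannot be told apart. The macrophage markers had median changes of -0.27, -0.11 and -1.94 in pigs 1, 2 and 3 at 24 h and the fibroblast markers of 0.089, 0.0023 and -0.42. Pig 3 had the lowest median in both of these lists and in the members, and also in the muscle fibre (-0.022) and endothelial (-0.14) lists. It had the highest median in the adipocyte (0.30) and lymphocyte (0.25) lists, and lay between the other pigs in the erythroid list (0.091). The part of these marker changes, and of the end differences of the EF1A, actin and GAPDH controls, in the members' medians was not tested.

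Each member's brightest probe set had a 95% interval of its change from limma. At 2 h, 6 h and 24 h, all 63 intervals lay within 1.5-fold in either direction, and 41, 53 and 34 of them within 1.2-fold. The intervals speak for these probe sets alone. Dim further sets of RPL24, RPL6 and RPL12, described further on, had mean log2 changes of -0.62 at 2 h, -0.71 at 6 h and -0.63 at 24 h, which are beyond 1.5-fold.

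**Figure D1:**
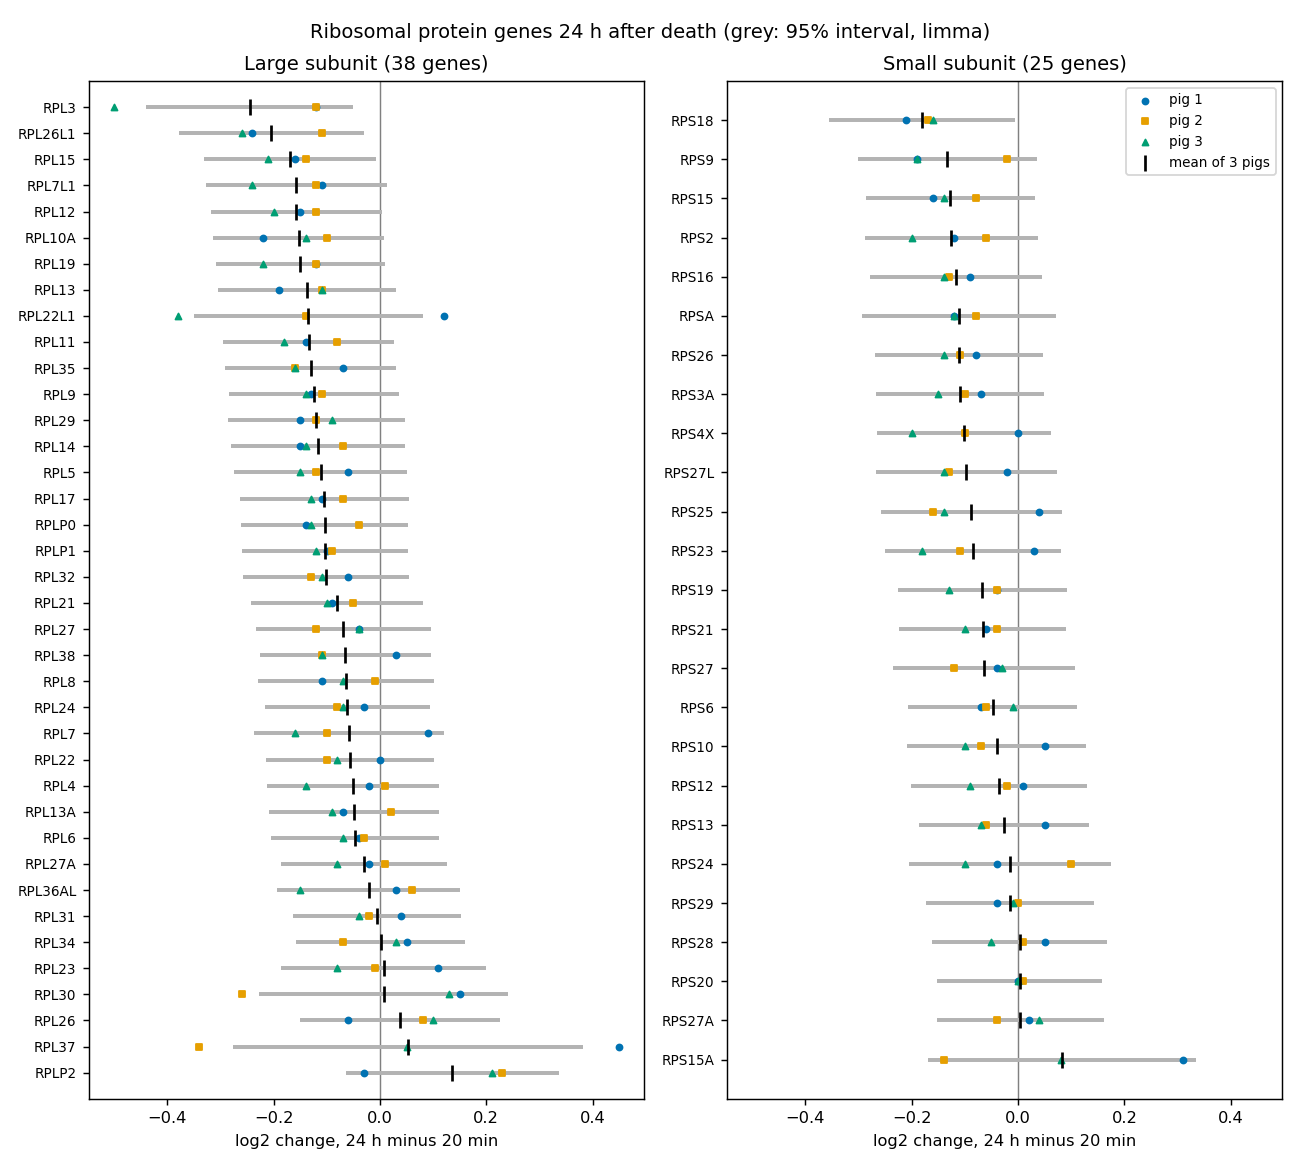
Log2 change from 20 min to 24 h for the 38 large and 25 small subunit genes, ordered by their mean; coloured points are the 3 pigs, black ticks their mean and grey bars the 95% limma intervals. Most means lie to the left of 0, at a median of -0.092 for the large and -0.067 for the small subunit, and most intervals cross 0.

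Other genes as bright as the members were counted in the same way. The planned background of like brightness was the genes as bright as the brightest 5 percent of probe sets. Of its 684 other genes, 20.3, 19.7 and 28.4 percent were lower in 3 of 3 pigs at 2 h, 6 h and 24 h. Of its 56 members, 32, 27 and 36 were. The medians there were -0.0030, 0.0091 and -0.019 for the other genes and -0.065, -0.041 and -0.083 for the members. A level of 12 was chosen after the values were seen, as it holds most members. At or above it, 30 of 53 members were lower in 3 of 3 pigs at 2 h, against 12.4 percent of the 225 other genes. The counts were 26 of 53 members against 18.2 percent at 6 h, and 34 of 53 against 24.9 percent at 24 h. The other genes at or above 12 had median changes of 0.024, 0.034 and 0.031, while the members at or above 12 had medians of -0.065, -0.040 and -0.081. Split at levels of 12.99 and 13.22 into 3 bands with like numbers of members, the lowest band had 24 h medians of -0.095 for 18 members and 0.042 for 131 other genes. In the middle band they were -0.065 for 17 members and 0.099 for 22 other genes, and in the highest band -0.074 for 18 members and -0.011 for 72 other genes. The medians were thus farthest apart in the middle band and closest in the highest. Values of the brightest genes reached 14.9 on single arrays, and the response of the probes near that end was not tested.

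**Figure D2:**
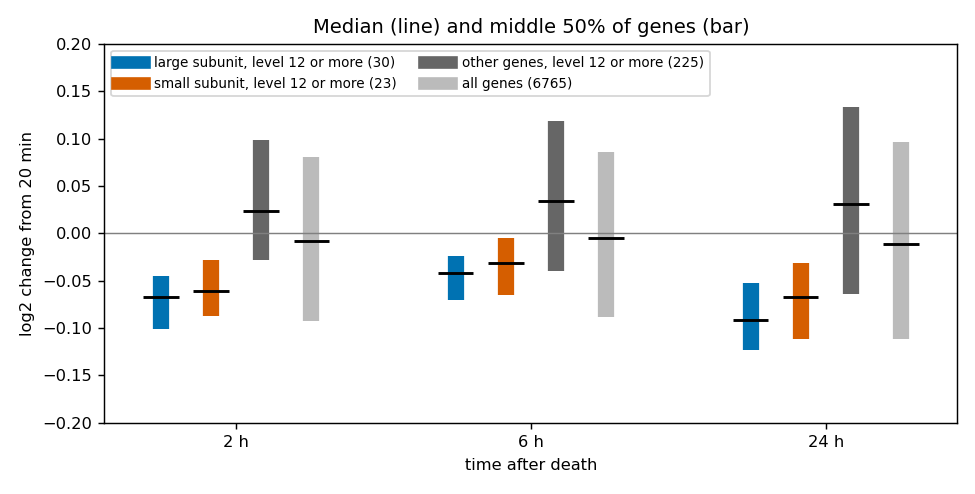
Median (black line) and middle 50% of genes (bar) of the log2 change from 20 min at 2 h, 6 h and 24 h, for large and small subunit genes and other genes with a level of 12 or more, and for all genes. The bars of both subunits lie below 0 at each time, while the bars of the other genes cross 0.

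The test's own estimate of spread bears on the count of members. By default limma draws each gene's variance toward 1 value shared by all probe sets, which gave the members a median standard error of 0.074 at 24 h. An alternative added after the data were seen lets that value follow the expression level and at the same time guards it against outlying variances (a trended and robust prior), so the effects of these 2 changes cannot be told apart. It gave a median standard error of 0.048. The members lower at an unadjusted p under 0.05 then numbered 12 at 2 h, 3 at 6 h and 25 at 24 h, against 5.2, 4.43 and 10.2 percent of all genes. RPS24 was higher at 6 h by this rule (unadjusted p = 0.047 in limma). Of the other genes at a level of 12 or more, 2.22, 1.33 and 12.4 percent were lower by this rule, and 15.6, 20 and 26.2 percent were higher. Still no member passed the adjusted threshold, with smallest adjusted p-values of 0.52, 0.36 and 0.19 in limma.

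Large and small subunit genes were lower by like amounts. The median change of the large subunit genes was -0.070 at 2 h, -0.045 at 6 h and -0.092 at 24 h. For the small subunit genes it was -0.064, -0.031 and -0.067. Lower in 3 of 3 pigs were 23 of 38 large and 12 of 25 small subunit genes at 2 h, 19 and 9 at 6 h, and 23 and 15 at 24 h. In these medians over the pigs both subunits were nearest to 20 min at 6 h. Pig 1 differed, with a small subunit mean of -0.016 at 2 h and -0.026 at 6 h. With the arrays centred on the brightest 5 percent of probe sets, the members' medians at 2 h and 6 h were -0.066 and -0.063. The order of these times thus depended on the pig, and the gap between them on the scaling.

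The large minus small difference was computed on every array as the mean of the 38 genes minus the mean of the 25 genes. It lay between -0.74 and -0.69 on the 12 arrays, an offset set by which probe sets represent each subunit. Within pigs 1, 2 and 3, its change from 20 min was -0.018, 0.0052 and -0.017 at 2 h, 0.010, -0.029 and 0.0061 at 6 h, and -0.017, -0.0097 and -0.016 at 24 h. The means were -0.010 ± 0.013, -0.0042 ± 0.022 and -0.014 ± 0.0040 (SD, n = 3 pigs). At 2 h and 6 h the pigs differed in sign, and at 24 h the value was below 0 in all 3 pigs but came to -0.0029 when all probe sets of a gene were averaged. At a level of 12 or more, the 24 h means of pigs 1, 2 and 3 were -0.069, -0.068 and -0.1046 for the large subunit. For the small subunit they were -0.047, -0.063 and -0.1059, so the sign in pig 3 turned. The large minus small difference was not tested, as an exact permutation test over 3 pigs cannot reach 0.05.

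**Figure D3:**
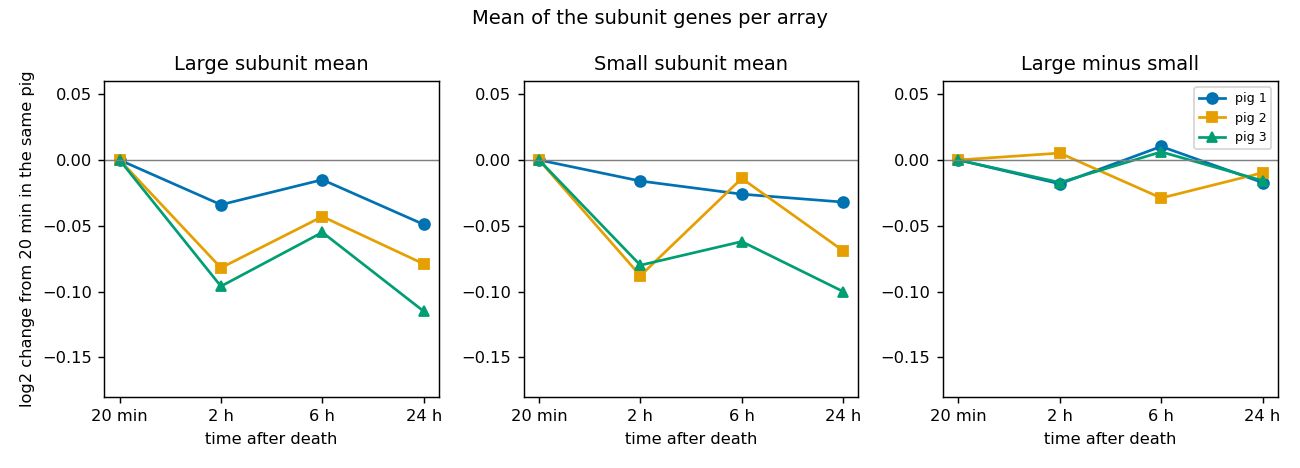
Change from 20 min of the mean log2 level of the large subunit genes, of the small subunit genes and of the large minus small difference, by time after death; each line is 1 of the 3 pigs. Both subunit means lie below 0 in every pig at each later time, and the difference between them goes no lower than -0.029.

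Between the later times the median changes were small. From 2 h to 6 h the median change was 0.029, and 8 of 63 members had a lower mean, where 44.3 percent of all genes had. From 6 h to 24 h it was -0.042, with 50 of 63 means lower, against 54.4 percent of genes. These counts depended on the scaling: after centring the arrays on the brightest 5 percent of probe sets, 23 and 36 members had lower means.

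Of the proteins that join the 5S ribosomal RNA to form a particle of the large subunit, RPL5 and RPL11 are both also known as binders of MDM2 when ribosome assembly fails. RPL5 had levels of 13.03, 13.04 and 13.22 in pigs 1, 2 and 3 at 20 min and of 12.97, 12.92 and 13.07 at 24 h. Its change was -0.11 ± 0.046, lower in 3 of 3 pigs, and the ranges of both times overlapped. RPL11 went from 13.50, 13.28 and 13.46 to 13.36, 13.20 and 13.28, a change of -0.13 ± 0.049 with overlapping ranges. Neither passed, with unadjusted p-values of 0.16 and 0.094 in limma.

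The stalk of the large subunit, which recruits elongation factors, is built from RPLP0 and the acidic proteins RPLP1 and RPLP2, with RPL12 at its base. RPL12 was 13.04, 13.09 and 13.07 at 20 min and 12.89, 12.98 and 12.87 at 24 h, and all 24 h values lay below all 20 min values. The change was -0.16 ± 0.043 (unadjusted p = 0.055 in limma, two-sided). RPLP0 was 13.66, 13.59 and 13.66 at 20 min and 13.52, 13.54 and 13.53 at 24 h, and RPLP1 13.45, 13.41 and 13.42 and then 13.34, 13.31 and 13.31. Their changes were -0.10 ± 0.053 and -0.10 ± 0.012, and in neither gene did the ranges overlap. RPLP2 lay on the other side, at 12.16, 11.96 and 11.84 at 20 min and 12.13, 12.19 and 12.04 at 24 h, a change of 0.14 ± 0.15 with pig 1 slightly lower and pigs 2 and 3 higher. At 2 h its change was 0.088 ± 0.20 and at 6 h 0.14 ± 0.18, so its spread between pigs was as large as the change. A second, dim probe set of RPLP0 with a level of 7.14 was higher at all times, by 0.19 at 24 h, so the probe sets of RPLP0 disagreed.

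Around the exit tunnel, through which the new protein leaves, 7 genes were measured: RPL4 inside it and RPL17, RPL19, RPL22, RPL26, RPL31 and RPL35 near its mouth. At 2 h all 7 means were lower, 6 of them in 3 of 3 pigs, at a median of -0.096. The medians were -0.078 at 6 h and -0.057 at 24 h. RPL19 was 12.71, 12.52 and 12.74 at 20 min, 12.57, 12.37 and 12.53 at 2 h, 12.55, 12.42 and 12.61 at 6 h, and 12.59, 12.40 and 12.52 at 24 h. Its values were lower in every pig at each later time, with overlapping ranges because pig 2 was low throughout. The changes were -0.16 ± 0.042, -0.13 ± 0.028 and -0.15 ± 0.058, with an unadjusted p of 0.043 in limma at 2 h. RPL35 and RPL17 had 24 h changes of -0.13 ± 0.051 and -0.10 ± 0.034, and RPL31 and RPL4 of -0.0053 ± 0.044 and -0.052 ± 0.083.

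RPL3, which lies close to the site of peptide bond formation, had the most negative mean change at 24 h. Its levels were 10.71, 10.45 and 10.94 at 20 min, 10.60, 10.41 and 10.70 at 2 h, 10.68, 10.50 and 10.73 at 6 h, and 10.59, 10.34 and 10.44 at 24 h. The 24 h change was -0.25 ± 0.22 (unadjusted p = 0.018, adjusted p = 0.30 in limma), and pig 3, which was highest at 20 min, contributed most of it. Without pig 3 the change was -0.12. RPL15, another core protein of the large subunit, went from 12.84, 12.85 and 12.93 to 12.69, 12.71 and 12.72, with no overlap and a change of -0.17 ± 0.038 (unadjusted p = 0.043 in limma). RPL23 lay on the other side early, with changes of 0.024 ± 0.14 at 2 h and 0.078 ± 0.082 at 6 h, and 0.0068 ± 0.10 at 24 h.

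In the head of the small subunit, 11 genes were measured, with medians of -0.051 at 2 h, -0.0094 at 6 h and -0.040 at 24 h. RPS18, a head protein often used as a reference gene in quantitative PCR, had the most negative mean change of all 63 members at 2 h and 6 h. It was 13.62, 13.41 and 13.54 at 20 min, 13.43, 13.31 and 13.23 at 2 h, 13.36, 13.20 and 13.40 at 6 h, and 13.41, 13.24 and 13.38 at 24 h. Each later value was below the same pig's 20 min value. The highest value at 6 h lay just below the lowest at 20 min, and at 24 h both met at 13.41 to 2 decimals. The changes were -0.20 ± 0.10, -0.21 ± 0.055 and -0.18 ± 0.024, with unadjusted p-values of 0.028, 0.025 and 0.044 in limma and adjusted p-values of 0.61 at 2 h and 0.53 at 6 h. Other probe sets of RPS18, at levels of 13.04 and 12.48, had smaller changes of -0.086 and -0.073 at 2 h and of -0.064 and -0.063 at 24 h, also lower in 3 of 3 pigs at 24 h. The mean over its 3 probe sets at 2 h was -0.12.

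Several head proteins had mean changes close to 0. RPS20, RPS28 and RPS29, at levels of 13.68 to 13.92, had 24 h changes of 0.0030 ± 0.0052, 0.0030 ± 0.051 and -0.015 ± 0.020. RPS27A, made as a fusion with ubiquitin, was 13.24, 13.18 and 13.22 at 20 min and 13.26, 13.14 and 13.25 at 24 h, a change of 0.0045 ± 0.041, and its sign at 6 h turned with the scaling. RPS15 and RPS16 had 24 h changes of -0.13 ± 0.040 and -0.12 ± 0.028, lower in 3 of 3 pigs.

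The body and platform of the small subunit held 13 measured genes, with medians of -0.066, -0.048 and -0.085 at 2 h, 6 h and 24 h, and 9 of them were lower in 3 of 3 pigs at 24 h. RPS6, the protein phosphorylated by S6 kinases, was 13.36, 13.30 and 13.32 at 20 min and 13.29, 13.24 and 13.31 at 24 h by its brightest set. The change was -0.048 ± 0.031, lower in 3 of 3 pigs. A dim set of RPS6 with a level of 7.62 changed by -0.41 at 2 h, -0.56 at 6 h and -0.40 at 24 h. It was lower in 3 of 3 pigs each time, so the size of the change depended on the probe set. RPSA, also known as a laminin receptor, was 12.82, 12.74 and 12.93 at 20 min and 12.70, 12.66 and 12.81 at 24 h, a change of -0.11 ± 0.023 with overlapping ranges. RPS2 and RPS9, both of which help to keep decoding accurate, had changes of -0.13 ± 0.072 and -0.13 ± 0.096. RPS24 was the member higher in 3 of 3 pigs at 6 h, with 13.28, 13.07 and 13.04 at 20 min and 13.34, 13.28 and 13.17 at 6 h. Its change was 0.14 ± 0.076 at 6 h and -0.015 ± 0.11 at 24 h.

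Paralogs that replace or resemble a core protein were dimmer, at levels below 12. All 5 measured, RPL22L1, RPL26L1, RPL36AL, RPL7L1 and RPS27L, had lower means at 2 h and 24 h, at medians of -0.12 and -0.13. RPL26L1 was 9.77, 9.50 and 9.52 at 20 min and 9.53, 9.39 and 9.26 at 24 h, a change of -0.20 ± 0.080 with overlapping ranges (unadjusted p = 0.025 in limma). RPL7L1 changed by -0.16 ± 0.068. RPL22L1, at -0.13 ± 0.25, differed in sign between pigs, with 10.15, 10.56 and 10.76 at 20 min and 10.27, 10.42 and 10.38 at 24 h. RPL36AL had a change of -0.021 ± 0.11 at 24 h, which became 0.0049 under cyclic loess scaling.

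The members were steady from array to array. Their median SD over the 12 arrays was 0.068, beside 0.15 for all genes and 0.10 for the 225 other genes with a level of 12 or more. RPS20 and RPS29 were the steadiest members, both with an SD of 0.027. Of genes often taken as references, RPLP0 had an SD of 0.048, RPL4 of 0.057, RPL32 of 0.060 and RPS18 of 0.12. The SD was lower in the brighter bands, with medians of 0.068, 0.060 and 0.058 for members in the 3 bands of level, while the other genes of the same bands had 0.12, 0.093 and 0.076. Because the members were chosen by name and the bands by level, these are descriptions.

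Pigs differed in a few members. By limma's F test over pigs, 3 of 63 members passed the adjusted threshold, where 25.3 percent of all genes did. At a level of 12 or more 0 of 53 members passed, where 19.1 percent of the other genes did, and 3 of the 53 had an unadjusted p under 0.05, where 31.6 percent of the other genes had. RPL37, a zinc-binding protein of the large subunit, had pig means of 8.91, 8.22 and 8.48 (adjusted p = 0.0082 in limma), and pig 1 was highest at all 4 times. RPS27L, a paralog of RPS27 known as a p53 target, had pig means of 11.09, 11.06 and 11.35 (adjusted p = 0.015 in limma), with pig 3 highest at all 4 times. RPL3 had pig means of 10.65, 10.43 and 10.70 (adjusted p = 0.048 in limma). Leaving out a pig left 1 call each time: RPS27L without pig 1, and RPL37 without pig 2 or pig 3. With the trended and robust prior, 13 members passed, RPL14, RPS9 and RPL19 among them, where 29 percent of all genes and 37.3 percent of the other genes at 12 or more did. Of these 13, RPL22L1, RPL3, RPL37 and RPS27L had levels below 12, so the last share is of a brighter set. The 4 arrays of a pig come from 1 carcass, so the pig means carry the spread between portions and times.

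**Figure D4:**
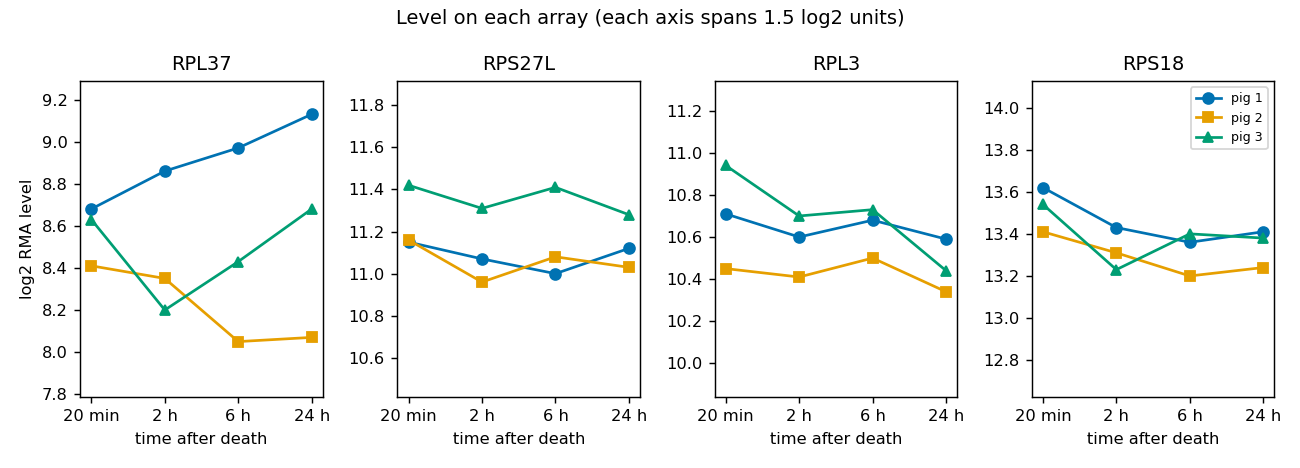
Log2 RMA level of RPL37, RPS27L, RPL3 and RPS18 on each of the 12 arrays by time after death; each line is 1 pig and each axis spans 1.5 log2 units. Pig 1 is highest for RPL37 and pig 3 for RPS27L at all 4 times, and RPS18 is below its 20 min level at every later time in each pig.

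The 24 members with more than 1 probe set gave 32 further values. Of these, 8 are the dim sets of the pairs described next. Among the 24 remaining sets, 7, 6 and 7 were lower in 3 of 3 pigs at 2 h, 6 h and 24 h. Of all genes, 16.8, 17.8 and 21.1 percent were. Higher in 3 of 3 pigs were 3, 2 and 2 of these sets, against 14, 16 and 16.3 percent of all genes. Their median changes were -0.052, -0.055 and -0.063. The sets of 1 gene differed in the sign of the mean change for 8 of the 24 genes at 2 h, 11 at 6 h and 10 at 24 h. No like count for other genes is given here. The second probe set of RPL38 differed widely between pigs, with means of 8.89, 10.68 and 10.71 (adjusted p = 2.3e-07 in limma), while its brightest set had no call.

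A pattern among these further sets was noticed after the values were seen. For 8 members, RPL12, RPL13A, RPL17, RPL23, RPL24, RPL32, RPL6 and RPS6, the array carries a pair of probe sets whose names share a cluster number and differ in a letter, A1 or S1. The labels and the annotation do not say what the letters stand for. One set of each pair was bright and the other dim, with levels of 5.86 to 8.0. The dim sets were lower at 2 h and at 6 h in 3 of 3 pigs for all 8 genes, where 13.8 and 16.4 percent of the 7045 probe sets of that range of levels were, and at 24 h for 4 of 8, against 19.9 percent. Their median change was -0.50 at 2 h, -0.57 at 6 h and -0.29 at 24 h, while the bright sets of the same genes had medians of -0.045, -0.017 and -0.055.

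The dim set of RPL24 shows the course. It was 8.53, 8.16 and 8.34 at 20 min, 8.09, 7.57 and 7.51 at 2 h, 8.26, 7.31 and 7.61 at 6 h and 8.50, 7.51 and 8.20 at 24 h. Values at 2 h lay below all 20 min values, and at 24 h pigs 1 and 3 were back near their 20 min level while pig 2 was not. The dim set of RPL6 ran likewise, from 6.74, 6.52 and 7.01 at 20 min to 6.47, 5.49 and 6.19 at 6 h and 6.77, 5.95 and 6.85 at 24 h. The dim set of RPL12 did not return, with changes at 24 h of -0.49, -0.99 and -0.42 in pigs 1, 2 and 3. The median over the 8 dim sets was -0.42, -0.28 and -0.79 in pigs 1, 2 and 3 at 2 h and -0.32, -0.82 and -0.52 at 6 h. None passed the adjusted threshold in limma, in which the smallest unadjusted p-values at 2 h were 0.00078 for RPL24 and 0.0022 for RPL12.

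The same count was made over other pairs of the array. The other pairs numbered 371, some of them without a single gene symbol. Of their dim sets, 11.9, 17.3 and 8.36 percent were lower in 3 of 3 pigs at 2 h, 6 h and 24 h. Of the 371 pairs, 3 also had a bright set at 12 or more. The dim sets of these 3 were lower in 3 of 3 pigs at 2 h and 6 h as well, with medians of -0.34 and -0.26. The array's control probe sets for ribosomal RNA gave no common direction. One set for 28S ribosomal RNA changed by -0.56, -0.24 and -0.39 in pigs 1, 2 and 3 at 2 h and by -0.20, -0.62 and -0.34 at 6 h. The other 28S set changed by -0.66, 0.86 and 0.013 at 2 h and by 0.059, -0.53 and -0.0033 at 6 h, and a set for 18S by 0.038, 1.19 and 0.21 at 2 h. The part of these changes in the dim sets was not tested.

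**Figure D5:**
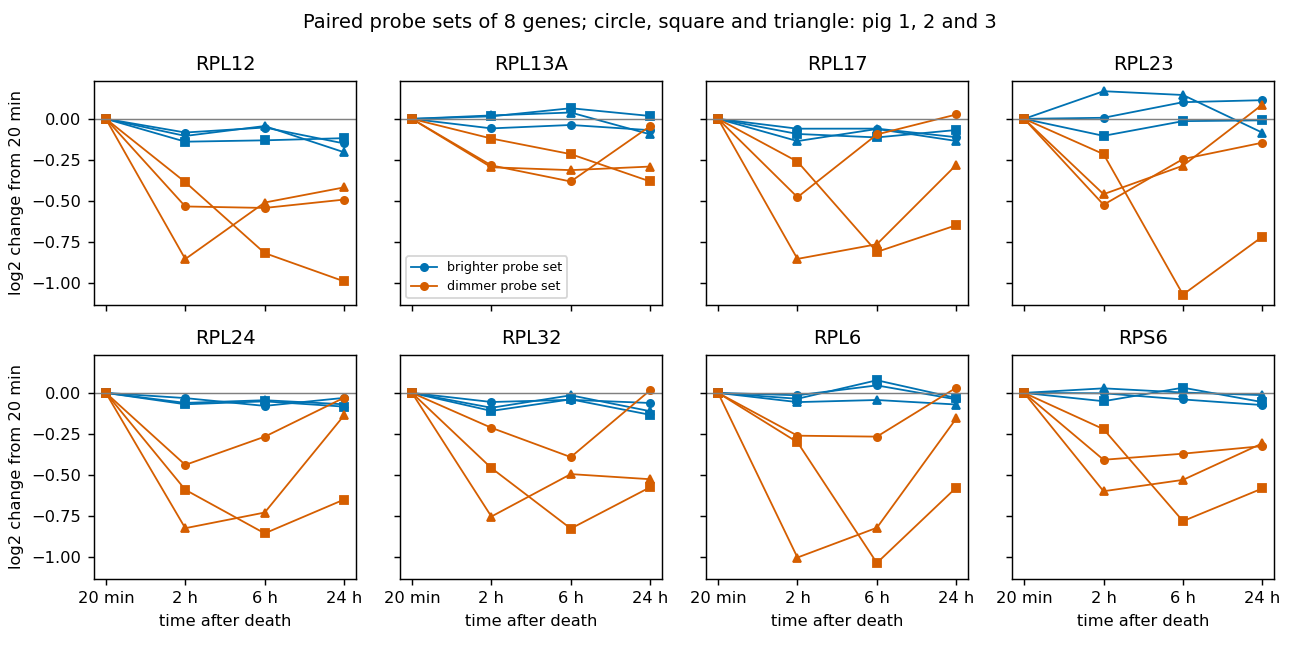
Log2 change from 20 min of the brighter (blue) and dimmer (orange) probe set of 8 ribosomal protein genes by time after death; circles, squares and triangles are pigs 1, 2 and 3. At 2 h and 6 h every dimmer set lies below 0, at medians of -0.50 and -0.57, while the brighter sets stay close to 0.

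Genes that work with the ribosomal proteins gave mixed values. Of 16 other mRNAs with a TOP tract, mostly elongation and initiation factors, 11 had a lower mean at 24 h, where 52.8 percent of all genes had, and 4 were lower in 3 of 3 pigs, where 21.1 percent of all genes were. Their median was -0.055, and 0 had an unadjusted p under 0.05 in limma. EEF1D, an exchange factor for elongation factor 1A, changed by -0.17 ± 0.096, and BTF3, which binds nascent chains, by -0.16 ± 0.090. The ribosome-bound scaffold RACK1 and the ubiquitin-like fusion FAU, both parts of the small subunit outside the naming rule, had changes of -0.13 ± 0.037 and -0.0023 ± 0.078.

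Among 29 ribosome assembly factors the 24 h median was -0.12, with 17 lower in 3 of 3 pigs, against 21.1 percent of all genes. At an unadjusted p under 0.05, 6 were lower and 1 was higher, where 8.71 and 6.28 percent of all genes were. DDX21, a nucleolar helicase, changed by -0.34 ± 0.13 and WDR12, a partner of BOP1 in large subunit assembly, by -0.36 ± 0.13 (adjusted p = 0.24 and 0.28 in limma). The 10 genes of RNA polymerase I, which transcribes the ribosomal RNA, had a median of -0.053, and 2 of them, POLR1D and POLR2H, were lower at an unadjusted p under 0.05, against 8.71 percent of all genes, with changes of -0.19 ± 0.090 and -0.19 ± 0.19. The 8 regulators of TOP mRNAs and ribosome production had a median of -0.030 with members on both sides. MYC, which drives ribosome production, changed by -0.97 ± 0.75 and the cap-binding factor EIF4E by -0.36 ± 0.14, while the kinase AKT1 changed by 0.22 ± 0.12. No gene of these lists passed the adjusted threshold in limma at 2 h, 6 h or 24 h.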

How the data were processed

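Total RNA of 12 muscle portions, 3 pigs at 4 times, was labelled with biotin and hybridised to 1-colour Affymetrix porcine arrays, per the labels. The deposited values are on a log2 scale, and the authors made them by RMA, for which the submitters' processing notes name affy. The version, parameters and annotation behind them are not stated in the labels. RMA brings all arrays to like distributions, so only changes relative to the other probe sets can be seen. Differences at both ends of the scale may be compressed.

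Gene symbols came from a platform annotation of 2016: 10069 probe sets had 1 symbol, 198 had several and 13732 had none, and the symbols of all 63 members matched RefSeq. After 124 control probe sets were left out, limma 3.58.1 in R 4.3.3 fitted time with pig as a block to 23999 probe sets (lmFit, eBayes, 6 residual degrees of freedom), with two-sided tests and Benjamini-Hochberg adjustment within each comparison, at a threshold of 0.05. Errors are SDs over pigs (n = 3). The pigs pair the arrays: deviations from the time means correlated at 0.41 to 0.66 within pigs. Between pigs they correlated at -0.46 to -0.039, values that taking out the time means by itself pulls below 0. The portions of a group come from separate animals. No set of members was tested as a set. The procedure was tested on simulated data with changes far larger than those of the members. That test did not cover changes of a few percent.

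Named members were the stalk proteins, RPSA, RPS6, RPS27A, RPL3, RPL4, RPL5, RPL11 and the paralogs; for each comparison with 20 min the 5 members with the lowest and 3 with the highest moderated statistic; the 5 most and 3 least different between pigs; and up to 3 per role by change at 24 h. Some others were named after their values were seen: RPS20, RPS28, RPL31, RPL32, RPL38, RACK1, FAU and the paired probe sets. The members and lists were chosen with earlier results of these data known. Alternatives were no block, a random block, other scalings, a filter on dim probe sets, the mean of all probe sets, leaving out pigs or single arrays, and a trended and robust prior. Sequences of the genes are not used here.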

Additional observations from a re-analysis of the deposited data

How the results depend on the processing

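The medians of both subunits at 2 h, 6 h and 24 h against 20 min stayed below 0 in all 15 settings, from -0.10 to -0.062 for the large and from -0.10 to -0.053 for the small subunit at 24 h, and 0 members passed over time in any of them. Without the pig block, or with pig as a random block, 0 probe sets passed at 24 h or at any time, against 1 with it, and the block changed no other call. The trended and robust prior, the single arrays left out (pig 2 at 2 h and pig 3 at 20 min) and the limit to members above the array median were chosen after seeing the data. With 3 pigs and small changes, limma could not separate a few percent from 0.

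The large subunit median at 6 h was -0.066 when centred on the brightest probe sets, -0.055 under cyclic loess and -0.063 over all probe sets. It lay between -0.047 and -0.037 leaving out pigs or arrays, and at 24 h between -0.10 and -0.062. From 6 h to 24 h it was -0.016 with bright centring, -0.022 over all probe sets and -0.060 to -0.038 leaving out pigs or arrays, and the small subunit's was 0.0059 with bright centring. Large minus small at 24 h was -0.0085 under loess and -0.0029 over all probe sets, and 0.020 from 6 h to 24 h over all probe sets.

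Probe sets passed in 0 to 1 case at 2 h, 0 to 2 at 24 h, 0 to 9 from 6 h to 24 h and 0 to 3 at any time when a pig or array was left out. From the arrays of only the times compared, 0 passed at 24 h and 4 from 6 h to 24 h, and 0 passed at any time under loess or without the dimmest 40 percent. The 9 and the 3 were without the 20 min array of pig 3. Members that differed between pigs numbered 5 with bright centring, 5 under loess, 6 without dim sets, 10 over all probe sets, 13 with the trended and robust prior, and 1 to 2 leaving out pigs or arrays.

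Named members that changed sign had no call. Over all probe sets, RPL23 was -0.11, -0.11 and -0.074 and RPLP0 0.053, 0.064 and 0.043 at 2 h, 6 h and 24 h, and RPS27A -0.068 at 6 h and -0.15 at 24 h. RPS27A at 6 h was -0.020 with bright centring and -0.012 under loess, and RPL36AL at 24 h was 0.0049 under loess. Leaving out pigs or arrays at 2 h gave RPL23 -0.049 to 0.088, RPL37 -0.25 to 0.061, RPL4 -0.020 to 0.020, RPLP2 -0.0039 to 0.20, RPS15A -0.13 to 0.0058 and RPS6 -0.027 to 0.017. At 6 h it gave RPL3 -0.12 to 0.019, RPL37 -0.28 to 0.039, RPS15 -0.012 to 0.0041, RPS15A -0.011 to 0.18, RPS27A -0.0044 to 0.0049, RPS29 -0.044 to 0.011, RPS6 -0.019 to 0.017, RPS9 -0.057 to 0.018 and RPSA -0.059 to 0.030. At 24 h it gave RPL23 -0.047 to 0.052, RPL36AL -0.061 to 0.041, RPL37 -0.15 to 0.25, RPS15A -0.029 to 0.19, RPS24 -0.074 to 0.029 and RPS27A -0.011 to 0.028.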
